A study of Mus musculus with 8 samples.

Results

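The genes described here are 10 negative feedback regulators of MAP kinase signalling: the MAP kinase phosphatase genes Dusp1, Dusp2, Dusp4, Dusp5, Dusp6 and Dusp10, the Sprouty genes Spry1, Spry2 and Spry4, and Spred1. They were taken by gene name from the 55401 genes of each of the 8 deposited libraries, and each name matched 1 gene. The members were chosen by their names with the signal in these libraries known, over all 4 times. Their levels and differences are therefore given as a description, and no test of a member is used as support. Of the 10 members, 4 reached a mean of 1 or more in signal (Dusp4, Dusp5, Dusp10 and Dusp1), as did 9606 of the 55401 genes. A further 4 members lay below that level, and Dusp2 and Spry2 were listed at 0 in every library, as were 17726 of the 55401 genes.

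The libraries come from AtT-20, a mouse pituitary line of the corticotrope type, the cell type that makes the hormone precursor Pomc. All cells carried ER-Pax7, in which the pioneer transcription factor Pax7 is made responsive to tamoxifen, and were sampled after 0, 24, 48 and 72 h of tamoxifen with 2 libraries at each time. Libraries of cells given vehicle, or of cells without ER-Pax7, were not used here, so the activity of ER-Pax7, tamoxifen itself and hours in culture cannot be told apart. The labels do not say whether replicates were separate cultures or whether the line is a clone; the spread between replicates may be technical. Values are a normalized read coverage over the exons of each gene, called signal below. The files do not name the unit; it is read here, from the values and the exon lengths beside them, as set per base of exon, and every comparison of levels between genes rests on that reading. Errors are SD over n = 2 libraries at each time, and in such bulk RNA fewer cells expressing a gene and less RNA per cell cannot be told apart.

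Summed signal was 164236 to 178548 per library, and read depth is not given in the files, which carry no counts. Replicates correlated at r = 0.978 to 0.994 over the 9606 genes. Pax7, whose reads may stem in part from the transgene, lay between 12.6 and 14.4. Of 6 corticotrope markers 5 averaged 1 or more; the list, most of it Pomc, summed to 669.9 to 680 at 0 h, 537.9 to 596 at 24 h, 586.7 to 595.6 at 48 h and 717.8 to 732 at 72 h. Within it the glucocorticoid receptor gene Nr3c1 had 3.43 and 3.69 at 72 h, against 5.07 and 4.93 at 0 h. Pomc, Tbx19, Pcsk1 and Neurod1 went the other way, with both 72 h libraries above both 0 h libraries. Tbx19 rose from 18.7 and 17.7 at 0 h to 22.5 and 23.2 at 72 h, and Pcsk1 from 17.8 and 19.7 to 24.5 and 21.3. Crhr1, which averaged below 1, overlapped between these times. Of 4 melanotrope markers Pax7 alone averaged 1 or more and 1 was at 0 throughout, while Pcsk2, a prohormone convertase gene, averaged 0.833 ± 0.0165 at 72 h, against 0.309 ± 0.0224 at 0 h, and Oacyl 0.627 ± 0.0119 at 72 h, against 0.0150 ± 0.00296 at 0 h. No marker of fibroblasts (of 6), immune cells (of 5), endothelial cells (of 4) or other pituitary lineages (of 7) reached that level; the immune list summed to 0.535 to 0.539 at 72 h, against 0.285 to 0.334 at 0 h. The part of these shifts in the results below was not tested.

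MAP kinases are activated by phosphorylation of a threonine and a tyrosine, and the dual-specificity phosphatases of the DUSP family remove both. DUSP5 and DUSP6 act on ERK in the nucleus and in the cytoplasm, DUSP1, DUSP2 and DUSP4 are nuclear enzymes that act on several MAP kinases, and DUSP10 acts on JNK and p38. Sprouty and Spred proteins act upstream, between receptor tyrosine kinases and Raf, and many genes of both families are themselves switched on by the kinases that they restrain. In corticotropes the hypothalamic hormone CRH acts through cAMP and MAP kinases on Pomc.

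Promoters of 4 members are shown because they set 2 of the higher members (Dusp1 and Dusp5) beside 2 that were listed at 0 in all or nearly all libraries (Dusp6 and Spry2). They cover 250 bases before to 50 bases after a RefSeq start of each gene (GRCm38.p6), which need not be the start of the gene as measured here. The Dusp1 window lies inside the measured gene, whose first base on the minus strand is 26562128. The Dusp10 window, from 184034131, also lies inside its measured gene, which starts at 184013302 on the plus strand. Of the 10 members, 8 had an entry. Capitals mark matches on either strand to the CRE (TGACGTCA), the CRE core (TGACG, which also lies inside the full CRE), the ETS site (CCGGAA), the AP-1 site (TGANTCA), the TATA box (TATAAA), the CCAAT box (CCAAT), the CArG box bound by serum response factor, and paired homeodomain sites of the kind Pax7 binds (TAAT and ATTA with 2 or 3 bases between them). Dusp1 lies at chr17:26508423-26508722 (minus strand), Dusp5 at chr19:53528895-53529194 (plus strand), Dusp6 at chr10:99262981-99263280 (plus strand) and Spry2 at chr14:105896770-105897069 (minus strand).
Dusp1: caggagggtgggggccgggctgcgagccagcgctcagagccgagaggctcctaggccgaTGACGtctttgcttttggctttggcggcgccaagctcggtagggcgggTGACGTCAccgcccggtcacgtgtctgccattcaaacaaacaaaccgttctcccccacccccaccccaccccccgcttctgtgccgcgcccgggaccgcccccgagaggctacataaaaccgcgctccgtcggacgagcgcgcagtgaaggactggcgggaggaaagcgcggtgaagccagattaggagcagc
Dusp5: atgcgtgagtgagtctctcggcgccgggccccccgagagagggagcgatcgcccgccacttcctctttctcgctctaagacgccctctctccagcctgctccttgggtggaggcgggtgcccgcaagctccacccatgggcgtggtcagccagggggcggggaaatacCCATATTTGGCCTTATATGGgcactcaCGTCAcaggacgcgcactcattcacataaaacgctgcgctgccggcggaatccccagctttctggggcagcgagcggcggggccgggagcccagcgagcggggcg
Dusp6: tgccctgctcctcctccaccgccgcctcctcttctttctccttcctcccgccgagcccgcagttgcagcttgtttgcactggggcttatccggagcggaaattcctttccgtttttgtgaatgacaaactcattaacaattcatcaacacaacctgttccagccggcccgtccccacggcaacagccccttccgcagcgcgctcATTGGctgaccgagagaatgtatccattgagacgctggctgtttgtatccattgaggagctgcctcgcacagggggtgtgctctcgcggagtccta
Spry2: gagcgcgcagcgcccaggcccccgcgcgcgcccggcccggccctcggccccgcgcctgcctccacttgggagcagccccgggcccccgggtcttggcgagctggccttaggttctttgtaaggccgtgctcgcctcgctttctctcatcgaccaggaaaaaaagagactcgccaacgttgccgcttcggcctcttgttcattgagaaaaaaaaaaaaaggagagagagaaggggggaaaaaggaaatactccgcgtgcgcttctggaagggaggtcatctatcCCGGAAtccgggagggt

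The Dusp1 promoter held a full CRE whose first base lies at -143 from the start, and a separate CRE core at -191; a CRE was found in 1.79% of the 32851 promoters in the table. The Dusp5 promoter held 2 adjoining CArG boxes, with first bases at -82 and -72, and a CRE core at -55; a CArG box was found in 1.63% of all promoters and a CRE core in 20.8%. Dusp6, listed at 0 in 7 libraries, held a CCAAT box (found in 37.4% of all promoters), and Spry2, listed at 0 in all 8, an ETS site (14.9%). The member promoters not shown did not follow this split. Dusp10, with a mean signal of 2.30, held 4 CCAAT boxes and no CRE core. Dusp2, listed at 0 in all 8 libraries, held a CRE core with its first base at 6. Spry1 held a CCAAT box at -244, and Spred1 held no match. No AP-1 site, TATA box or paired homeodomain site was found in any of the 8 member promoters; all promoters held them in 7.81%, 13.6%, 0.39% and 0.487% of cases, the last pair of shares being for 2 and for 3 bases between. The member promoters held 19 to 40 CpG dinucleotides, against a median of 7 over all promoters. Dusp2 and Spry2 had 26 and 28, Dusp6 had 19, and Dusp1, Dusp5 and Dusp10 had 31, 28 and 24. A match of letters is not a measured site, and no binding or methylation was measured in these libraries.

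Members were expressed at very unequal levels. Dusp4 was the highest, with a mean signal of 5.80 over the 8 libraries, above the mean of 96.2% of all genes. Dusp5 followed at 3.63, Dusp10 at 2.30 and Dusp1 at 1.26. Spred1 stood at 0.326, Spry1 at 0.116 and Spry4 at 0.0156. These 7 members, the ones above 0 in every library, kept 1 order of level in all 8 libraries. The ranges of neighbours in that order did not overlap either: Dusp4 ranged from 4.93 to 6.80, Dusp5 from 3.07 to 3.95, Dusp10 from 1.90 to 2.72, Dusp1 from 1.09 to 1.39 and Spred1 from 0.295 to 0.355. Dusp6, whose product is the cytoplasmic ERK phosphatase, was at 0.00215 in 0 h replicate 2 and at 0 in the other 7 libraries. Dusp2, known for its induction in lymphocytes, and Spry2 were at 0 throughout. What value a gene at 0 could still have is not known without the depth; the widely expressed signalling genes Igf1r and Gab1, singled out after their values were seen, were also at 0 in most libraries and at most 0.00991 in any.

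**Figure D1:**
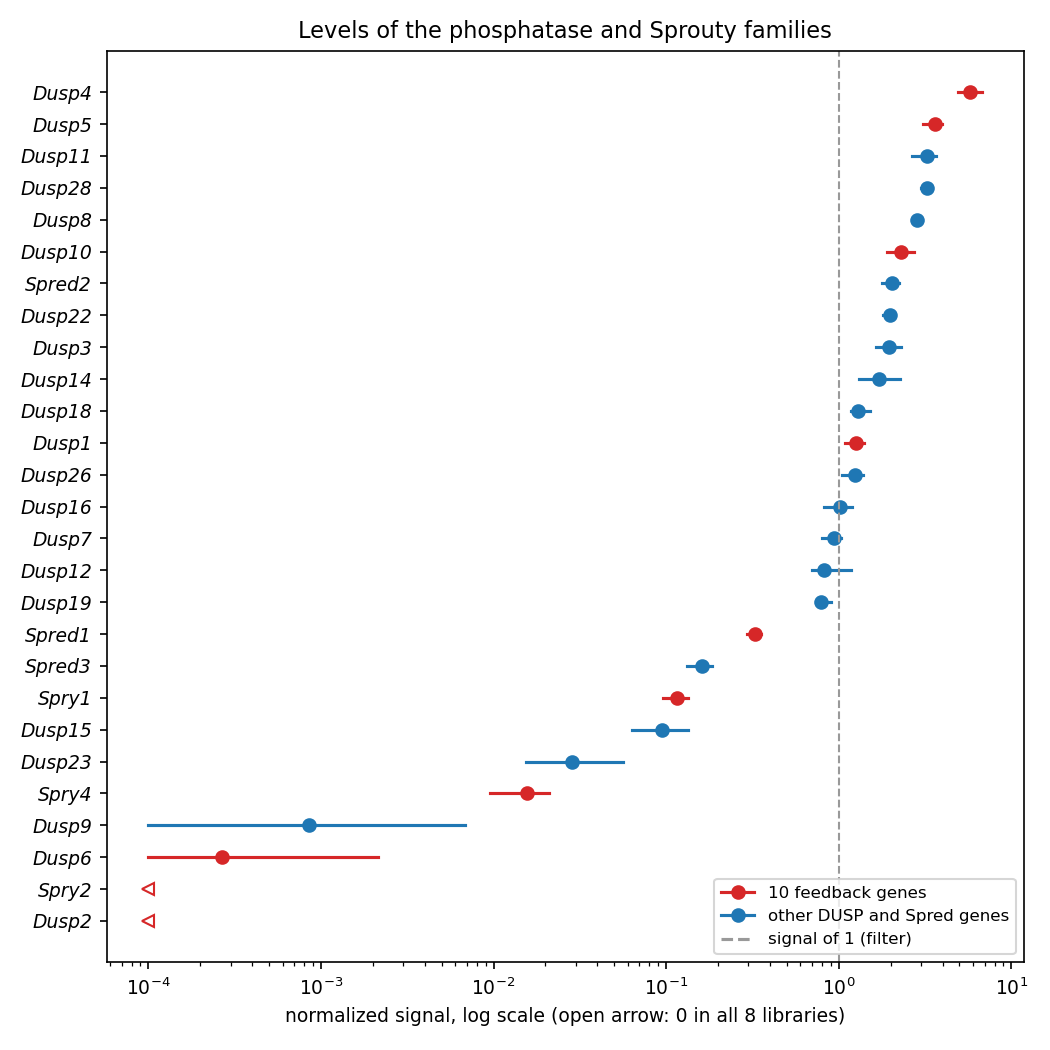
Signal of the 10 feedback genes (red) and of the other DUSP and Spred genes (blue), on a log scale. Points are means over 8 libraries and lines run from the lowest to the highest library (a line that reaches as far left as the open arrows includes libraries at 0); Dusp4 is the highest at 5.80, and Dusp2 and Spry2, drawn as open arrows, are at 0 in all 8 libraries.

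Among relatives that are not members, Dusp11, Dusp28 and Dusp8 had mean levels between those of Dusp5 and Dusp10 in the plot of family levels. Spred2, which restrains Ras like Spred1, had 2.22 ± 0.00791 at 72 h, against 1.97 ± 0.162 at 0 h. The X-linked ERK phosphatase gene Dusp9 was at 0 in 7 libraries.

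Dusp4 had the largest ratio to 0 h of the 4 tested members at 72 h; at 24 and 48 h that of Dusp5 was larger. Dusp4 (ENSMUSG00000031530.6, chromosome 8, 34807297 to 34819894, GRCm38) had a signal of 5.12 and 4.93 at 0 h, 5.24 and 6.17 at 24 h, 5.66 and 6.12 at 48 h, and 6.38 and 6.80 at 72 h. Both libraries of each later time lay above both 0 h libraries, and both 72 h libraries above all others. The group means were 6.59 ± 0.298 at 72 h and 5.03 ± 0.130 at 0 h, a ratio of 1.31 and a log2 change of 0.33 (SE 0.08) on the log2(signal + 1) scale. At 24 h the ratio to 0 h was 1.13 and the replicates were far apart (SD 0.656), and at 48 h it was 1.17.

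Dusp5, whose product removes phosphate from ERK in the nucleus, was higher from 24 h on. Dusp5 (ENSMUSG00000034765.6, chromosome 19, 53529109 to 53542431) had 3.19 and 3.07 at 0 h, 3.89 and 3.88 at 24 h, 3.45 and 3.95 at 48 h, and 3.94 and 3.66 at 72 h. No later library reached down to the 0 h libraries, while the 24, 48 and 72 h libraries overlapped each other. The ratio to 0 h was 1.24 at 24 h (log2 change 0.24, SE 0.06), 1.18 at 48 h and 1.21 at 72 h, so the difference of 72 h from 24 h was a ratio of 0.978, with overlapping libraries. Of the exonic bases of Dusp5, 22.1% lie inside exons of AC137853.2. Strand use is not given, so whether reads of these 2 genes were separated is not known.

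Dusp1, an immediate early gene of stress and growth factor responses (ENSMUSG00000024190.7, chromosome 17, 26505590 to 26562128), had 1.23 and 1.09 at 0 h, 1.11 and 1.29 at 24 h, 1.23 and 1.39 at 48 h, and 1.38 and 1.35 at 72 h. The 24 h libraries overlapped those at 0 h, and the 72 h libraries lay above them. The means were 1.37 ± 0.0212 at 72 h and 1.16 ± 0.101 at 0 h, a ratio of 1.18. At 48 h replicate 1 exceeded 0 h replicate 1 by less than 0.001, so that separation rests on replicate 2.

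Dusp10, the JNK and p38 phosphatase gene (ENSMUSG00000039384.8, chromosome 1, 184013302 to 184075636), had 2.23 and 2.30 at 0 h, 1.90 and 2.44 at 24 h, 2.72 and 2.33 at 48 h, and 2.27 and 2.20 at 72 h. The 24 h libraries lay on either side of the 0 h pair, and the 72 h mean was 0.986 times that at 0 h. At 48 h the ratio was 1.11, with an SD of 0.277.

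**Figure D2:**
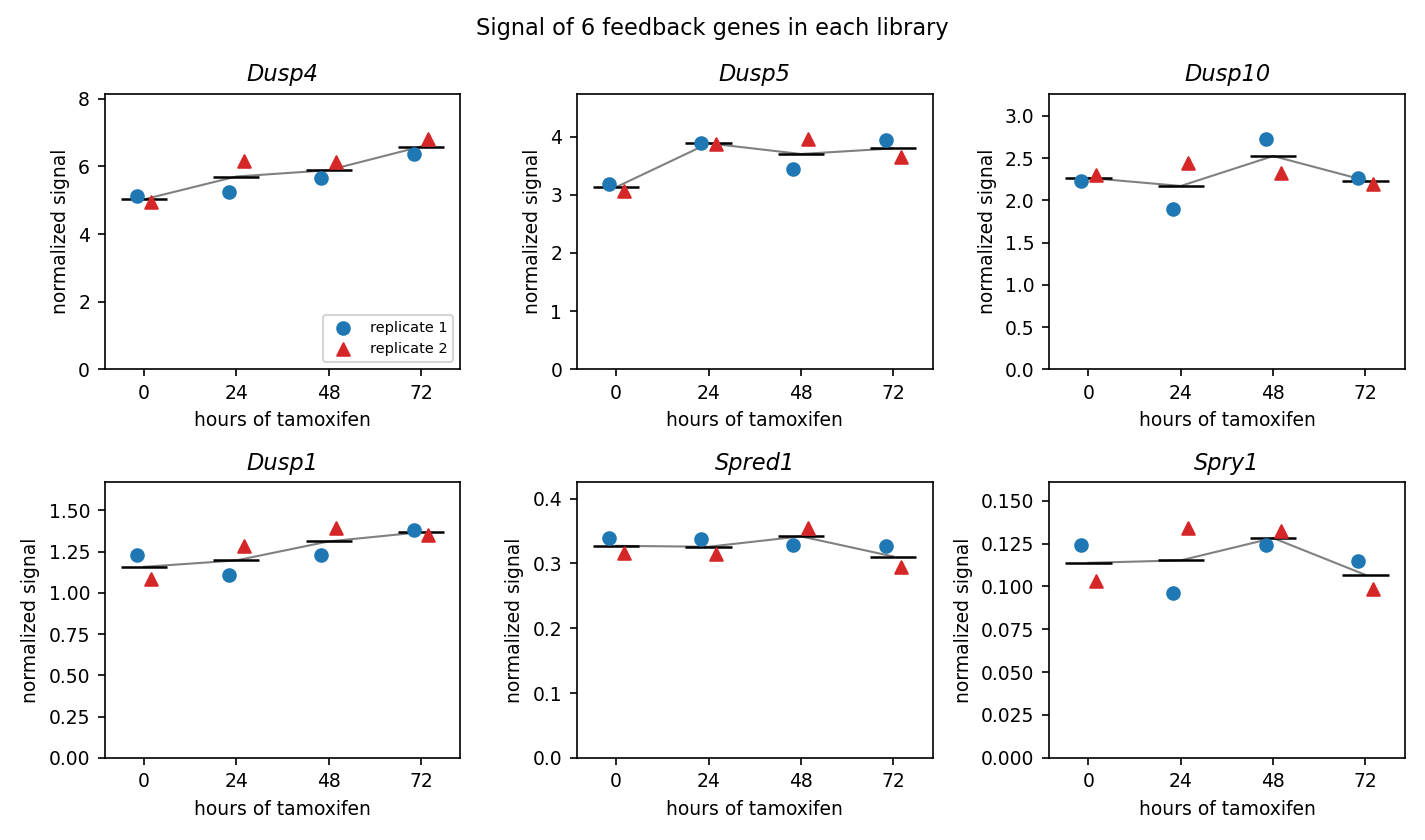
Signal of Dusp4, Dusp5, Dusp10, Dusp1, Spred1 and Spry1 against hours of tamoxifen, each panel with its own axis from 0. Circles and triangles are replicates 1 and 2, bars are group means and grey lines join them; both Dusp4 libraries at 72 h (6.38 and 6.80) lie above every earlier library, and Spred1 stays within 0.295 to 0.355.

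The Sprouty and Spred genes were low at every time. Spred1, which brings the Ras inhibitor neurofibromin to the membrane (chromosome 2, 117121374 to 117182279), had 0.339 and 0.315 at 0 h, 0.338 and 0.314 at 24 h, 0.329 and 0.355 at 48 h, and 0.326 and 0.295 at 72 h. Each later group overlapped the 0 h group, while both 72 h libraries lay below both 48 h libraries. Spry1 (chromosome 3, 37639947 to 37644598), of whose exonic bases 24.4% lie inside exons of Gm42922, had 0.124 and 0.103 at 0 h, 0.0963 and 0.134 at 24 h, 0.124 and 0.132 at 48 h, and 0.115 and 0.0987 at 72 h. Its 0 h libraries overlapped those at 24 and 72 h; at 48 h replicate 1 lay below 0 h replicate 1 by less than 0.001. Spry4 (chromosome 18) had 0.00949 and 0.0115 at 0 h, 0.0152 and 0.0209 at 24 h, 0.0183 and 0.0126 at 48 h, and 0.0207 and 0.0163 at 72 h. All later libraries lay above both 0 h libraries, and with the depth unknown no change is read from so low a level.

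Within the 6 phosphatase genes, Dusp4 made up 43.2% to 48.5% of the summed signal, with the highest share in 72 h replicate 2. The summed signal of the 6 was 13.97 and 14.01 at 72 h, against 11.8 and 11.4 at 0 h. The summed signal of the 4 Sprouty and Spred genes was 0.462 and 0.410 at 72 h, against 0.472 and 0.430 at 0 h.

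In a limma fit across the 9606 genes that averaged 1 or more, adjusted by the Benjamini-Hochberg method at 0.05, 0 of the 4 tested members were called at 24, 48 or 72 h against 0 h, or at 72 h against 24 h. The share of all tested genes called was 0.229% at 24 h, 0.552% at 48 h and 2.01% at 72 h, and 0.0208% for 72 h against 24 h. At an unadjusted p under 0.05, limma gave 1 of the 4 members at 24 h, 2 at 48 h, 2 at 72 h and 1 for 72 h against 24 h, where 13.2%, 10.5%, 15.7% and 13.6% of all tested genes passed. Both libraries lay above both 0 h libraries for 2 of the 4 members at 24 h, 4 at 48 h and 3 at 72 h, and this held for 24.4%, 24.3% and 27.4% of all tested genes. Both 72 h libraries lay above both 24 h libraries for 2 of the 4, and for 20.7% of all tested genes. Nothing is read from these counts, since the list was made with the values known, and a p above the threshold does not show that levels were equal.

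The pattern of Dusp4 over the 8 libraries was matched most closely by Mir431 (Pearson r = 0.9934 of log2(signal + 1)), Tmem51 (r = 0.9705) and Dnajb12 (r = 0.9692). Mir431 had 5.42 and 6.11 at 72 h, against 3.81 and 3.60 at 0 h, and all of its 91 bases lie inside exons of Rtl1. Strand use is not given, so its signal may be in part or wholly that of Rtl1. Tmem51 had 1.79 and 2.07 at 72 h, against 1.35 and 1.19 at 0 h. These r values are a description over 8 libraries, chosen as the highest of all tested genes, and the points share libraries and scaling.

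The 3′ untranslated regions of the members differ in AUUUA elements, counted here as ATTTA in the longest annotated region of each gene. Such elements are linked to short-lived messages, but their presence alone does not mark one, and stability was not measured. Dusp2 held 6.88 and Dusp1 5.80 of them per kilobase, against a median of 1.49 over 6812 genes that averaged 1 or more and had a region of at least 200 bases. Of those 6812 genes, 74.9% held an ATTTA. The other 8 members lay between 0.84 in Dusp6 and 2.77 in Spred1, with 1.80 in Dusp4 and 0.902 in Dusp5. Sites from Dusp1, Spry1 and Spry2 are shown as DNA of the transcript strand, 30 bases each from GENCODE M21, with ATTTA in capitals, because the Sprouty paralogs share a run of 17 bases there.
Dusp1: gctggtccttATTTATTTAacacccccctc
Spry1: attgtaaagaatATTTAttatgcgaatctc
Spry2: agtgtaaagaatATTTAtttgaagttttat
The Dusp1 site begins at base 95 of the region, that of Spry1 at base 858 and that of Spry2 at base 683. Spry1 was above 0 in all 8 libraries and Spry2 was listed at 0 in all 8.

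The rest of the pathway was followed in 6 lists of genes that are not members. Of 59 pathway genes tested, limma called 0 at 24 h, 1 at 48 h and 2 at 72 h, each of them higher, and 0 for 72 h against 24 h. At an unadjusted p under 0.05 it gave 6, 11, 15 and 15. Of all 9606 tested genes 0.229%, 0.552%, 2.01% and 0.0208% were called, and 13.2%, 10.5%, 15.7% and 13.6% had an unadjusted p under 0.05. These shares are the background for the counts of each list below, from which nothing is read. Of the other feedback inhibitors 5 were tested, with 1, 1, 1 and 2 at an unadjusted p under 0.05. Dab2ip, a Ras GTPase-activating protein gene listed with the feedback inhibitors (chromosome 2, 35558266 to 35730994), had 1.45 and 1.34 at 0 h, 1.61 and 1.59 at 24 h, 2.07 and 1.98 at 48 h, and 2.36 and 2.43 at 72 h. Each later pair of libraries lay above the pair before it. Dab2ip rose 1.71-fold at 72 h (2.39 ± 0.0455 at 72 h, 1.40 ± 0.0788 at 0 h, log2 0.50, SE 0.05, limma adjusted p = 0.0056) and 1.45-fold at 48 h (log2 0.34, limma adjusted p = 0.0359). Without 0 h replicate 2 the call at 72 h was lost (limma adjusted p = 0.0806). The call at 48 h was lost when any 1 of the 0, 48 or 72 h libraries was left out (limma adjusted p between 0.0742 and 0.311), with no filter (0.113) and with replicate number as a block (0.0667).

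Among the other dual-specificity phosphatases 9 of 15 genes were tested. Dusp14, a small phosphatase that lacks the MAP kinase binding domain of the classical enzymes (chromosome 11, 84048041 to 84069261), had 1.54 and 1.32 at 0 h, 1.41 and 1.57 at 24 h, 1.71 and 1.75 at 48 h, and 2.27 and 2.10 at 72 h. The 24 h libraries overlapped those at 0 h and the 72 h libraries lay above all others. Dusp14 rose 1.53-fold at 72 h (2.19 ± 0.123 at 72 h, 1.43 ± 0.156 at 0 h, log2 0.39, SE 0.06, limma adjusted p = 0.0284). The call was lost when any 1 of the 0, 48 or 72 h libraries was left out (limma adjusted p between 0.0685 and 0.186) and with no filter (0.116).

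Of 20 genes that ERK is known to induce, 9 were tested and limma called 0 in any comparison, with 0, 1, 2 and 3 at an unadjusted p under 0.05 for 24, 48 and 72 h against 0 h and for 72 h against 24 h. At 72 h 8 of the 9 had a log2 change above 0, with a median of 0.09 against 0.01 over all tested genes. The same count held for the other dual-specificity phosphatases, with a median of 0.08. The 2 genes with an unadjusted p under 0.05 at 72 h were Junb (log2 0.25, limma adjusted p = 0.0819) and Ier5 (log2 0.23, limma adjusted p = 0.126). Egr2 alone was below 0 (log2 -0.15). Klf10 averaged 4.85 ± 0.0793 at 72 h, against 4.52 ± 0.370 at 0 h (limma adjusted p = 0.571). Jun, a component of the AP-1 factor, averaged 4.82 ± 0.318 at 72 h, against 4.23 ± 0.0556 at 0 h (limma adjusted p = 0.371). Egr1, the classical early target of ERK and serum response factor, was at 0.0624 and 0.0571 at 72 h, against 0.0929 and 0.105 at 0 h, below the level tested. Egr1 was singled out after its values were seen, and the other untested genes of the list went both ways. Ratios of 72 h to 0 h were above 1 for Ier3 (2.29), Fos (1.56), Phlda1 (1.44), Etv5 (1.32) and Egr3 (1.16). They were below 1 for Fosl1 (0.956), Ccnd1 (0.872), Myc (0.803), Fosb (0.719) and Etv4 (0.595).

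Of 21 ERK cascade genes 18 were tested and limma called 0, with 3, 3, 2 and 1 at an unadjusted p under 0.05 in the same order of comparisons. Mapk3, which codes for ERK1, averaged 10.5 ± 1.40 at 72 h, against 11.7 ± 0.375 at 0 h (limma adjusted p = 0.545). Its mean level was above that of every phosphatase member. Of 19 genes of the JNK and p38 cascades 13 were tested and limma called 0, with 0, 3, 4 and 4 at an unadjusted p under 0.05. Jund, an AP-1 gene, averaged 19.9 ± 0.981 at 72 h, against 14.5 ± 0.420 at 0 h (log2 0.43, limma adjusted p = 0.0763), and was called only with either 24 h library left out (limma adjusted p = 0.017 in each of these fits). Exons of Gm11175 cover 52.6% of the exon length of Jund. As strand use is unknown, part of the Jund signal may stem from Gm11175. Mapk14, which codes for p38 alpha, averaged 3.53 ± 0.0886 at 72 h, against 3.52 ± 0.236 at 0 h (limma adjusted p = 0.989).

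Growth factor receptors and ligands were mostly low: 5 of 34 averaged 1 or more and were tested, and limma called 0, with 0, 0, 1 and 2 at an unadjusted p under 0.05. Vegfa averaged 9.69 ± 0.0917 at 72 h, against 9.21 ± 0.206 at 0 h (limma adjusted p = 0.657). Fgfr1 averaged 5.59 ± 0.278 at 72 h, against 4.77 ± 0.235 at 0 h (limma adjusted p = 0.209). Below the tested level, and singled out after their values were seen, Kit and Ier3 were called by limma with a lower floor (a mean of 0.1 or more, pseudocount 0.1). In that fit 17871 genes were tested and 0.162%, 0.548% and 1.57% of them were called at 24, 48 and 72 h. Kit, the receptor of stem cell factor, had 0.476 and 0.515 at 24 h, against 0.202 and 0.210 at 0 h, a 2.41-fold rise (limma adjusted p = 0.0382), and stood at 0.489 and 0.554 at 72 h (limma adjusted p = 0.0103). Ier3, an early response gene that ERK phosphorylates and induces, had 1.46 and 1.43 at 72 h, against 0.599 and 0.660 at 0 h, a 2.29-fold rise (limma adjusted p = 0.0145). That floor was not combined with the removal of single libraries.

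**Figure D3:**
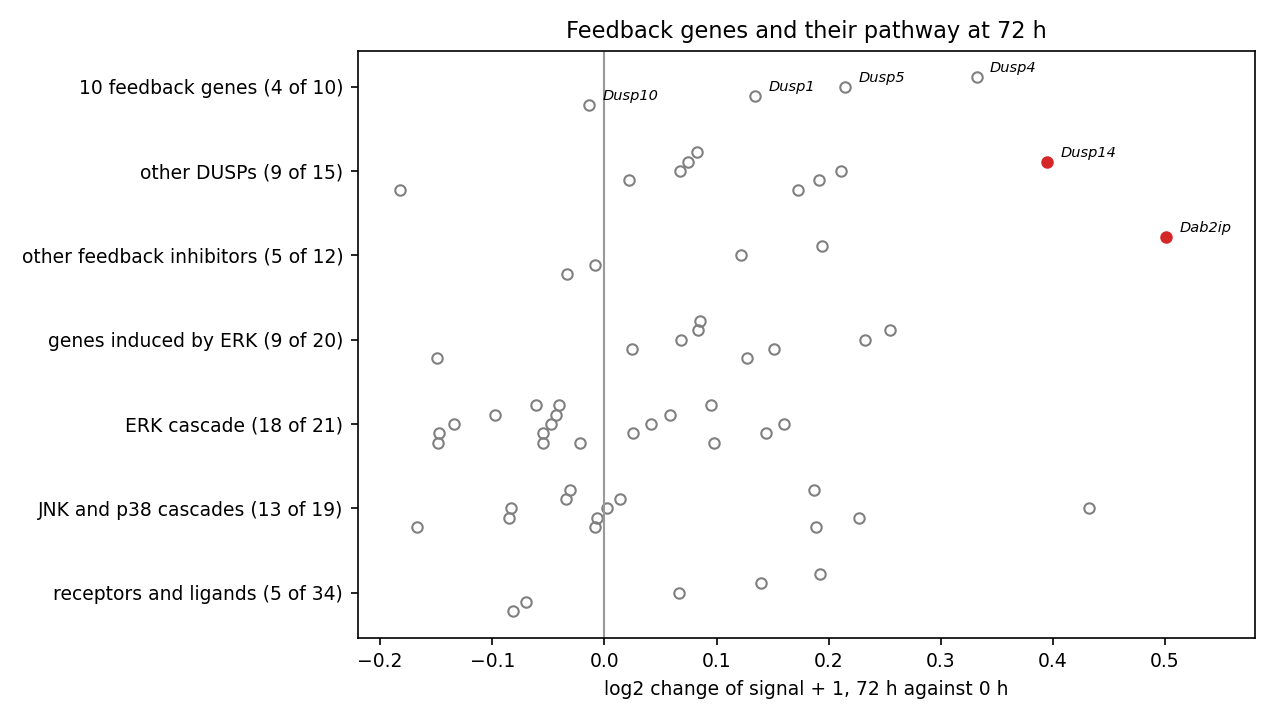
Log2 change of signal + 1 at 72 h against 0 h for the feedback genes and the 6 pathway lists, with the number tested of the number listed after each name. Each circle is a gene; filled red circles are pathway genes called by limma (Dusp14 and Dab2ip), and Dusp4, Dusp5, Dusp1 and Dusp10 are named as a description.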

How the data were processed

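RNA of 8 libraries was analysed, in 4 groups of 2 set by the labels (0, 24, 48 and 72 h). The deposited values are a signal, 1 per gene and library, normalized by the authors and read here as mean read coverage over merged exons; no source used here gives the scaling rule, counting tool, strand use or depth. Per the submitters' processing notes, the tools included HISAT2 2.2, SAMtools 1.12 and deepTools 3.5, with GRCm38 (mm10) as build. Values were transformed as log2(signal + 1), and limma 3.58.1 in R 4.3.3 was fitted to the 9606 genes that averaged 1 or more, with group as the only term, an intensity trend and 4 residual degrees of freedom; such log2 changes understate ratios of low genes. P-values were adjusted over all tested genes, and the fit was tested on simulated data. Members and lists were chosen with earlier results of these data known. Pathway genes were named if called, otherwise the 2 highest of a list (1 such gene is not reported here); Dusp4 was matched to other genes as the phosphatase with the largest log2 change, and no Sprouty or Spred gene reached the filter for such a match. Coordinates and exons are those of the deposited files (GRCm38), whose coordinates for the members were the same in GENCODE M21, and overlaps are with exons of that annotation. Alternatives were another pseudocount, no filter, a lower floor, trimmed mean and quantile scaling, no trend, a replicate block and each library left out. Spry3 was not analysed here.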

Additional observations from a re-analysis of the deposited data

Results flagged for a closer look

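Fgfr1, a fibroblast growth factor receptor gene, was lower than at 0 h in both 24 h libraries and higher in both 72 h libraries. Its signal was 4.94 and 4.60 at 0 h, 4.16 and 4.45 at 24 h, 5.42 and 4.91 at 48 h, and 5.40 and 5.79 at 72 h. The log2 change at 72 h less that at 24 h was 0.31, which limma did not call (adjusted p = 0.185). Groups of 2 libraries were too small for a test of single outlying libraries.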

How the results depend on the processing

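Log2 changes of members under the alternatives moved by less than 1 SD of the replicates in 224 cases and by more in 16. Part of the 224 could not move. No trend, no filter and the replicate block leave a log2 change as it is. So does leaving out a library from a time outside the comparison. Such cases say nothing about stability. The log2 change of Dusp4 at 72 h against 0 h was between 0.29 and 0.38 over the 15 alternatives, and that of Dusp5 at 24 h between 0.22 and 0.30. Neither changed sign. In both cases the later libraries lay above both 0 h libraries, so only trimmed mean or quantile scaling could have reversed the sign. The sign of small changes did change: Dusp1 at 24 h ranged from -0.03 to 0.08, and Dusp10 at 24 h from -0.17 to 0.08. The number of members called stayed at 0 in every alternative except that it ranged from 0 to 1 at 72 h when a library was left out; the 1 was Dusp4, without either 24 h library, in fits that called 313 and 320 of the 9606 genes, and nothing is read from it. The cause of the following moves was not tested, beyond fewer libraries or more genes tested. Without a filter 4, 5 and 63 genes were called at 24, 48 and 72 h and 0 at 72 h against 24 h, and the pathway genes called were 0 at 48 h and 1 at 72 h. With the lower floor 98 genes were called at 48 h, and the pathway genes called were 1, 2 and 4 at 24, 48 and 72 h. With a library left out, the calls ranged from 2 to 104 at 24 h, from 2 to 95 at 48 h, from 9 to 320 at 72 h and from 0 to 61 for 72 h against 24 h. The highest counts came without 24 h replicate 2 (95 at 48 h without either 24 h library), and the lowest without a 0 h library (0 for 72 h against 24 h also without a 48 h library). A lone library left in a group was assumed to vary like the other groups. The pathway calls ranged from 0 to 1 at 48 h and from 0 to 5 at 72 h. With replicate number as a block 24 genes were called at 48 h and 1 at 72 h against 24 h, and 0 pathway genes at 48 h. Deviations of same-numbered libraries from their group means correlated between -0.016 and 0.402, not above 0.1 in every pair, so the numbers were not taken to pair the libraries. Quantile normalization gave 22 genes higher and 24 lower at 48 h, against 31 and 22, and 104 and 78 at 72 h, against 122 and 71. Over the pathway genes named in the text, their comparisons and the 15 alternatives, a call was lost in 16 cases and gained in 2. The depth is not given, so how low a gene at 0 may be is not known.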
